A study of Drosophila melanogaster with 3 samples.

Results

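The 73 nuclear genes for mitochondrial ribosomal proteins of Drosophila melanogaster were examined for binding of the CG12071 protein. They were taken as all protein-coding genes whose symbol starts with mRpL or mRpS followed by a number, 73 of 13945 protein-coding genes. Of these, 47 encode proteins of the large subunit (mRpL) and 26 proteins of the small subunit (mRpS). The material was chromatin of whole embryos aged 12 to 24 hours, males and females together, from 1 transgenic line whose inserted transgene fuses green fluorescent protein to the C-terminal end of CG12071. The tagged protein was immunoprecipitated and the DNA sequenced (ChIP-seq) in 3 biological replicates of this 1 group, so no condition could be compared with another. The labels contradict themselves at one point: the free text calls all 3 libraries input controls, while their assay and antibody fields describe an immunoprecipitation, which is how the replicates were used here. In whole embryos, binding in few cells and weak binding in many cells cannot be told apart.

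Mitochondria translate the few proteins encoded by their own genome on ribosomes of bacterial descent. The RNA of these ribosomes comes from mitochondrial DNA, whereas all of their proteins are encoded in the nucleus, made on cytoplasmic ribosomes and imported. Some of the proteins, such as mRpS2, mRpS10, mRpL20, mRpL23 and mRpL24, have bacterial counterparts, and others, such as mRpS23, mRpS26 and mRpL41, are known only from mitochondria. The products of these ribosomes are core subunits of the respiratory chain and of ATP synthase.

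The DNA under 6 of the peaks is shown to let promoters with strong and with weaker peaks be compared. The weakest peak, that of mRpL18, is not among them. Each sequence covers 50 bp to either side of the deposited summit, the position of highest signal, on the strand of the mitochondrial ribosomal protein gene, from release 6 of the genome (RefSeq, dm6 coordinates). Capitals mark TGTTTA or its reverse complement TAAACA, the core of sites that forkhead-domain transcription factors are known to bind, which was among the 6-base words most in excess, in percentage points, at the other peaks. The first pair belongs to peaks that ranked 4 and 12 of all, mRpS2 and mRpL24 to ranks 782 and 906, and mRpL20 and mRpS26 to ranks 3174 and 4135.
mRpS23, chr2L:13835409-13835509, minus strand: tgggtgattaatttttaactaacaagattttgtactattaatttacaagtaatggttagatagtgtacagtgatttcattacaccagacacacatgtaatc
mRpS10, chr3R:15229477-15229577, plus strand: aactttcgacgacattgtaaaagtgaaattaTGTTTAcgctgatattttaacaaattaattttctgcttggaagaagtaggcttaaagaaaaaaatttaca
mRpS2, chr2L:4850524-4850624, minus strand: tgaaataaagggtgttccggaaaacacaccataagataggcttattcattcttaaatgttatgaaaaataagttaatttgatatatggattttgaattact
mRpL24, chr2L:4945456-4945556, minus strand: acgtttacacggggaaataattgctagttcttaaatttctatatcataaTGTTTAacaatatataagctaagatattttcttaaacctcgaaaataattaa
mRpL20, chr3L:13018052-13018152, minus strand: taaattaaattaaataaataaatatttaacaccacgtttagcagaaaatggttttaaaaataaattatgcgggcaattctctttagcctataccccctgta
mRpS26, chr3L:18106172-18106272, plus strand: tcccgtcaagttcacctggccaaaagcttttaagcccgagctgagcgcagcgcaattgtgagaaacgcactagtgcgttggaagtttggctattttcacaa

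The bases A and T made up 71.3% of the 101 bp at mRpS23, 73.3% at mRpS10, 73.3% at mRpS2, 76.2% at mRpL24 and 73.3% at mRpL20, but 50.5% at mRpS26. Of the 4 bound genes whose sequence is not shown, mRpL23 had 79.2%, mRpL41 74.3%, mRpL18 59.4% and mRpS16 40.6%. The median over all thresholded peaks was 61.4%, so 3 of the 10 lay below it. The forkhead-type word was present at 2 of the 10 peaks of these genes, those of mRpS10 and mRpL24. It was present within 50 bp of the summit in 17.8% of the other 4251 peaks, and in 11% of windows of the same width centred 300 bp to either side. The word with the largest excess at the other peaks in percentage points, AAATAT or its reverse complement, was present at 5 of the 10, at mRpL20, mRpL23, mRpL24, mRpL41 and mRpS10, beside 25.9% of the other peaks and 17.9% of the windows beside them. Further words in excess there varied. CAAATA (19% of the other peaks) and CAAACA (18.3%) were present at 0 of the 10, and ACAAAT (17.8%) at 1. TAAATA (23%), AATATT (14%) and GTAAAC (9.5%) were present at 2. ATTTAC (12.8%) was present at 3 and TGTAAA (13.8%) at 4, each counted with its reverse complement.

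The measurements are lists of peaks. Each replicate, and the pooled alignments of all 3, had a list of 30000 entries that held peaks and background together, and the authors had made from these lists a thresholded list of reproducible peaks, the 10 found here and 4251 others. Entries were ranked within a list by the deposited signal value, with rank 1 the strongest, and the thresholded peaks were the strongest entries of the pooled list. The same number of strongest entries in a replicate is called its top set. A gene counted as bound if at least 1 of its annotated transcription start sites (TSSs) was no more than 500 bp from a thresholded summit. Read depth was unknown. Replicate 3 was weaker than the others, with q-values of at most 0.05 for 4015 of its entries against 13828 in replicate 1 and 12616 in replicate 2.

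Mitochondrial ribosomal protein genes were bound about as often as other genes, but the peaks were very unequal and nearly all were shared with a neighbouring gene. Of the 73 genes, 10 were bound (13.7%), beside 13.4% of all protein-coding genes. They were 5 of the 47 large subunit genes (10.6%), mRpL41, mRpL23, mRpL24, mRpL20 and mRpL18, and 5 of the 26 small subunit genes (19.2%), mRpS23, mRpS10, mRpS2, mRpS16 and mRpS26. Of these 10 genes, 6 held peaks among the 1000 strongest of the genome, and the other 4 lay between ranks 2606 and 4162.

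At the top of the list were 3 genes. mRpS23, a protein of the small subunit that bacteria lack, had the peak at rank 4 of the pooled list, with ranks 2, 5 and 3 in replicates 1, 2 and 3 (mean 3.33 ± 1.53, SD, n = 3). mRpS10, whose bacterial counterpart sits in the head of the small subunit, had rank 12, with 18, 13 and 14 in the replicates (mean 15 ± 2.65, SD, n = 3). mRpL41, a large subunit protein known from mitochondria, had rank 36, with 74, 23 and 43 (mean 46.7 ± 25.7, SD, n = 3). All 3 stayed in the strongest 100 entries of every replicate. Among the 100 strongest pooled entries, 3 of the 73 genes (4.11%) had one within 500 bp of a TSS, beside 0.574% of all protein-coding genes. The summits of mRpS23 and mRpS10 were closer to the TSS of a neighbouring gene than to their own.

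The next 3 genes were also found in every replicate. mRpL23, whose bacterial counterpart lies at the exit of the peptide tunnel, had rank 121 in the pooled list and 177, 129 and 86 in replicates 1, 2 and 3 (mean 131 ± 45.5, SD, n = 3). mRpS2, a counterpart of bacterial S2, had rank 782, with 1429, 826 and 492 in the replicates (mean 916 ± 475, SD, n = 3). mRpL24, counterpart of another protein near the tunnel exit, had rank 906, with 1629, 491 and 1187 (mean 1102 ± 574, SD, n = 3). The replicate ranks of mRpS2 and mRpL24 overlapped, and those of mRpL23 lay above both in all 3 replicates. With these genes 6 of 73 (8.22%) had an entry among the 1000 strongest, beside 4.15% of all genes, and the count was still 6 among the 2130 strongest, beside 7.54%.

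The 4 remaining bound genes repeated less well. mRpS16, whose bacterial counterpart is needed to assemble the small subunit, had pooled rank 2606, with 1857 in replicate 1, 2328 in replicate 2 and no entry within 500 bp of its TSS in replicate 3. mRpL20, whose bacterial counterpart is needed to assemble the large subunit, had pooled rank 3174, with 5894, 4386 and 1599 (mean 3960 ± 2179, SD, n = 3), so replicate 3 alone had it in its top set. mRpS26 was at pooled rank 4135, with 3988 and 4162 in replicates 1 and 2, but the entry of replicate 1 was not within 100 bp of the pooled summit, and replicate 3 had none. mRpL18, whose bacterial counterpart binds 5S RNA, was at pooled rank 4162, with 7188 and 2416 in replicates 1 and 2 and no entry in replicate 3. The last pair lay just inside the threshold, and the closest gene outside it, mRpS11, was at rank 5412.

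**Figure D1:**
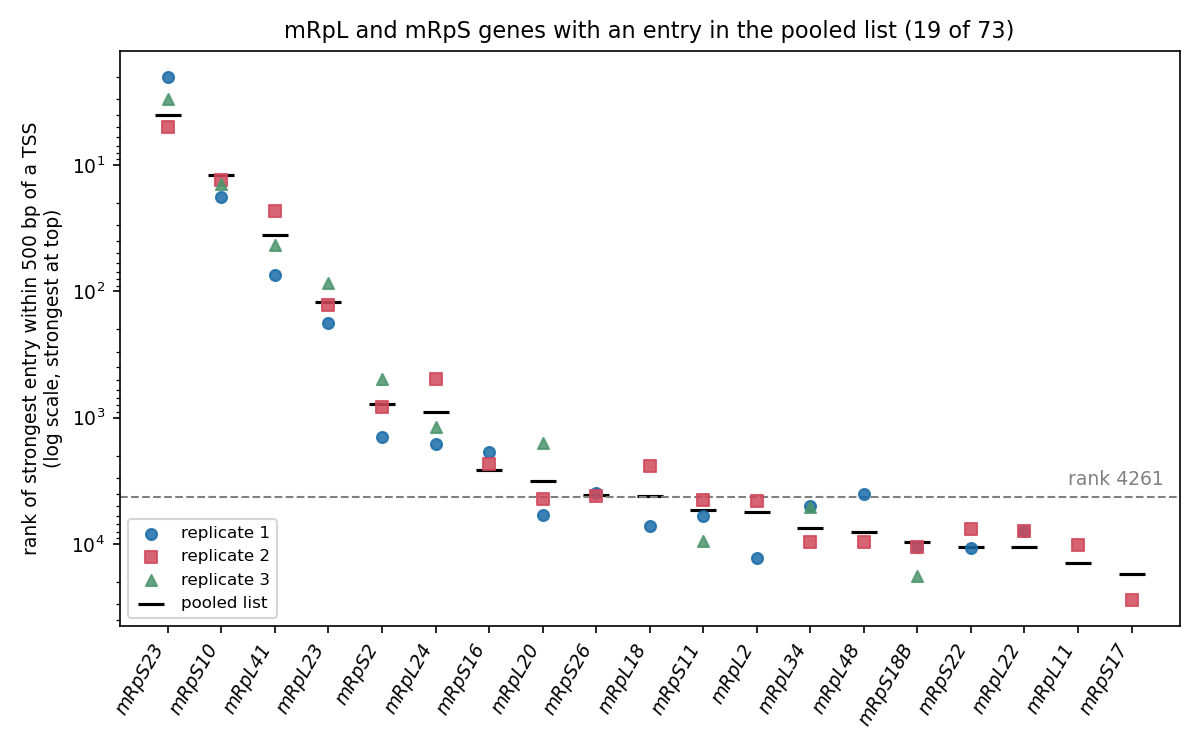
The vertical axis, a log scale with the strongest entries at the top, gives the rank of the strongest entry within 500 bp of a TSS, in the pooled list (black dashes) and in each replicate (symbols), for the 19 genes with a pooled entry. A missing symbol means that the replicate had no such entry. The first 6 genes have all 3 replicates above the dashed line, which marks the length of the thresholded list, and every gene from mRpS16 rightwards has a replicate below the line or missing.

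A thresholded peak was counted as supported by a replicate when that replicate had a summit of its top set within 100 bp. The peaks of 6 of the 10 bound genes (mRpS23, mRpS10, mRpL41, mRpL23, mRpS2 and mRpL24) had such support in all 3 replicates. These make 8.22% of the 73 genes, beside 6.52% of all genes. Support came from replicate 1 for 7 of the 10, from replicate 2 for 9 and from replicate 3 for 7. Of 30 pairs of a bound gene and a replicate, 26 had an entry within 100 bp of the pooled summit. Among these 26, which that limit selected, the replicate's summit was a median of 15 bp and at most 75 bp away. The pooled summit itself comes from the alignments of the same replicates. At mRpL41 the 3 replicate summits lay -5, 6 and 0 bp from the pooled one, and at mRpS10 10, 3 and -3 bp.

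The share of genes reached was also counted in single replicates. In the top sets of replicates 1, 2 and 3, 13.7%, 12.3% and 9.59% of the 73 genes had a summit within 500 bp of a TSS (mean 11.9% ± 2.09, SD, n = 3). The values over all protein-coding genes were 15.6%, 14.2% and 10.6% (mean 13.5% ± 2.55, SD, n = 3). The share of the 73 genes was the lower one in each of the 3 replicates. That difference was not tested. The 6 genes with full support were the 6 found in all 3 replicates, and 12 were found in at least 1. Of all 13945 protein-coding genes, 994 were found in all 3 and 2853 in at least 1.

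Most bound genes shared their promoter region with a gene on the opposite strand. Opposite-strand neighbours with a TSS within 500 bp upstream were present for 53 of the 73 genes (72.6%), for 34 of the large and 19 of the small subunit genes, beside 27.4% of all protein-coding genes. Such head-to-head pairs made 9 of the 10 bound genes (90%), all but mRpL41, beside 37.2% of all bound genes. Of the 53 genes with such a neighbour 9 were bound (17%), beside 18.2% of all genes with one. Of the 20 without, 1 was bound (5%), beside 11.6% of all genes without one.

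In 8 of the 10 cases the summit lay closer to a TSS of the neighbour than to any TSS of the mitochondrial ribosomal protein gene. This was so for 16.9% of all bound genes and for 41.3% of bound genes with an opposite-strand neighbour, of which the 9 here had 8 (88.9%). When peaks were assigned to their closest start site alone, 2 of the 73 genes (2.74%) were left bound, mRpL41 and mRpL23, beside 11.3% of all genes. The files hold no measure of transcription, so which gene of a pair a peak belongs to was not tested.

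The strongest peak, chr2L:13835308-13835637, was 387 bp upstream of mRpS23 and 105 bp upstream of CenG1A, which encodes a GTPase-activating protein for Arf. The peak of mRpS10, chr3R:15229367-15229690, was nearly midway, 138 bp upstream of mRpS10 and 119 bp upstream of the arginine methyltransferase gene Art3. That of mRpS2, chr2L:4850490-4850678, was 155 bp upstream of mRpS2 and 67 bp upstream of Mon1, a gene of endosome maturation. The peak of mRpL24, chr2L:4945409-4945593, was 145 bp upstream of it and 73 bp upstream of betaggt-I, which encodes the beta subunit of a geranylgeranyl transferase. All 4 summits were intergenic and lay between the paired start sites.

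Of the 4 weaker peaks, 3 also had intergenic summits between the paired start sites, and that of mRpL18 did not. The peak of mRpL20, chr3L:13017917-13018286, lay 235 bp upstream of mRpL20 and 164 bp upstream of Icmt, a methyltransferase gene for prenylated proteins. That of mRpS26, chr3L:18106037-18106406, lay 357 bp upstream of mRpS26 and 73 bp upstream of CG13698. The peak of mRpS16, chr2R:14173500-14173869, lay 89 bp upstream of mRpS16 and 8 bp upstream of the zinc-finger gene cg. The summit of the mRpL18 peak, chr2R:12756159-12756528, lay 90 bp upstream of mRpL18 but 70 bp inside Taz, in its 5' UTR. Taz encodes tafazzin, which remodels the mitochondrial lipid cardiolipin. For each of the 9 pairs the start site of each gene nearest to the summit was taken. Between these start sites there were 20 to 492 bp (median 222), and 7 of the 9 summits lay between them.

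The exceptions were mRpL41 and mRpL23. The mRpL41 peak, chr2R:15217592-15217918, had its summit in intergenic sequence 124 bp upstream of mRpL41 (FBgn0034001), with no other protein-coding TSS within 500 bp. A start site of the noncoding gene lncRNA:CR44463 was 454 bp from it. The mRpL23 peak, chr3L:2373461-2373759, had its summit in the 5' UTR of mRpL23 (FBgn0035335). That summit lay 81 bp downstream of the nearest of the 3 start sites of mRpL23 and 131 bp upstream of CG9004. It was upstream of another start site of mRpL23. Of the 73 genes 67 have a single annotated TSS (91.8%), beside 73.5% of all genes, and 3 is the most in this group.

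**Figure D2:**
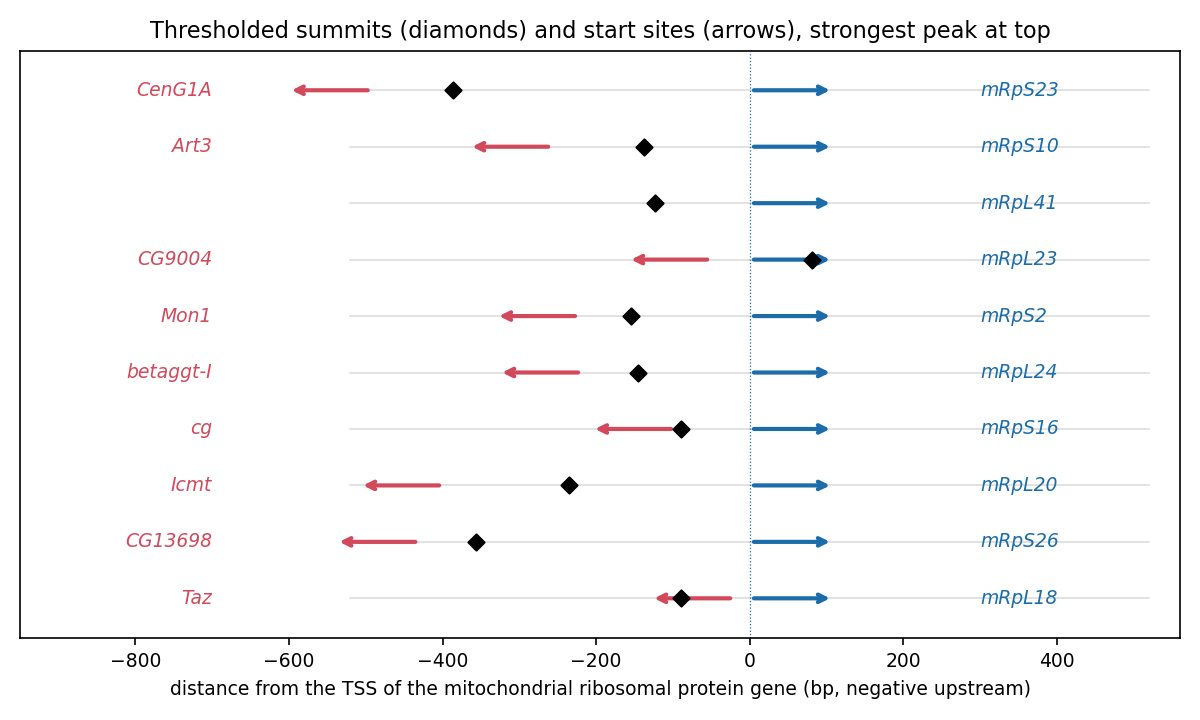
Each line is 1 bound gene, with the strongest peak at the top. The horizontal axis is the distance in bp from the TSS nearest to the summit (blue arrow, direction of transcription), the red arrow is the nearest TSS of a protein-coding neighbour, and the diamond is the thresholded summit. In 8 of 10 lines the diamond is nearer to the start of a red arrow than to 0.

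The other 63 genes had no thresholded summit within 500 bp. The closest summit was 722 bp from the TSS of mRpL2, and that of mRpS5 was farthest from one, at 1658 kb. The median was 9.99 kb, beside 13 kb over all unbound protein-coding genes. A thresholded summit within 2 kb was found for 8 of the 63 (12.7%), beside 9.32% of unbound genes. These 8 were mRpL2, mRpL34, mRpL27, mRpL55, mRpL13, mRpL22, mRpL12 and mRpL33.

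Of all 13945 protein-coding genes, 1869 were bound and 5122 had a pooled entry, the bound ones included. Among the 63 unbound genes here, weaker entries, which the threshold had left out, were present at 9. mRpS11, counterpart of a protein of the small subunit platform, had pooled rank 5412 (deposited q-value 0.00379) and was the strongest, with 5960, 4511 and 9441 in the replicates. Its summit was 29 bp upstream of mRpS11 and 28 bp upstream of Ns1, a nucleostemin gene. mRpL2, counterpart of a protein of the peptidyl transferase centre, had pooled rank 5579 (q-value 0.00421), with 12910 and 4545 in replicates 1 and 2 and none in replicate 3. The summit was 121 bp upstream of mRpL2 and 57 bp inside FoxK, a gene for a forkhead-domain factor.

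mRpL34 at rank 7435, mRpL48 at 8075 and mRpS18B at 9740 also had q-values under 0.05, so that 15 genes (20.5%) had a pooled entry at that level, beside 24.0% of all genes. At mRpL34 the closest neighbour was the dystroglycan gene Dg, and at mRpL48 it was CG17660. mRpS22 (10636), mRpL22 (10638), mRpL11 (14133) and mRpS17 (17257) had pooled entries with q-values from 0.0549 to 0.195. Of the 9 entries, 3 were matched within 100 bp in all 3 replicates, at mRpS11, mRpL34 and mRpS18B. In 6 of the 9 another gene's TSS was closer, which made 14 of the 19 genes with a pooled entry (73.7%), beside 13.5% of all genes with one. Opposite-strand neighbours within 500 bp upstream were more frequent here, at 72.6% of the 73 genes beside 27.4% of all genes. For pooled entries, the share among genes with such a neighbour was not counted.

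Counted over all 30000 pooled entries, 19 of the 73 genes (26%) had one within 500 bp of a TSS, beside 36.7% of all genes. The median rank of the strongest one was 4162 over these 19 and 6576 over all genes with one. Single replicates differed. Replicate 1 had an entry at 50.7% of the 73 genes and replicate 2 at 41.1%, beside 46.8% and 40.3% of all genes. Replicate 3 had one at 13.7%, beside 30.6%. This was also the replicate with the fewest entries with q-values of at most 0.05, and the part of that in the difference was not tested. An entry in all 3 replicates was found for 10 genes, beside 20.6% of all genes.

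A further 24 genes had an entry in a replicate but none in the pooled list, 17 of them in 1 replicate and 7 in 2. Of all 13945 protein-coding genes, 5122 had a pooled entry and 5799 had no entry in any full list, and the rest make up this class. Replicate 1 had an entry at 20 of the 24, replicate 2 at 11 and replicate 3 at none. mRpL47 had the strongest of these entries, at rank 3785 in replicate 1 and 6833 in replicate 2, while the median over the 24 was 13452. mRpL48 and mRpL47 were the only unbound genes with an entry in the top set of any replicate, mRpL48 at 4054 in replicate 1. The last 30 genes (41.1%) had no entry within 500 bp of a TSS in any of the 4 full lists, beside 41.6% of all genes.

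**Figure D3:**
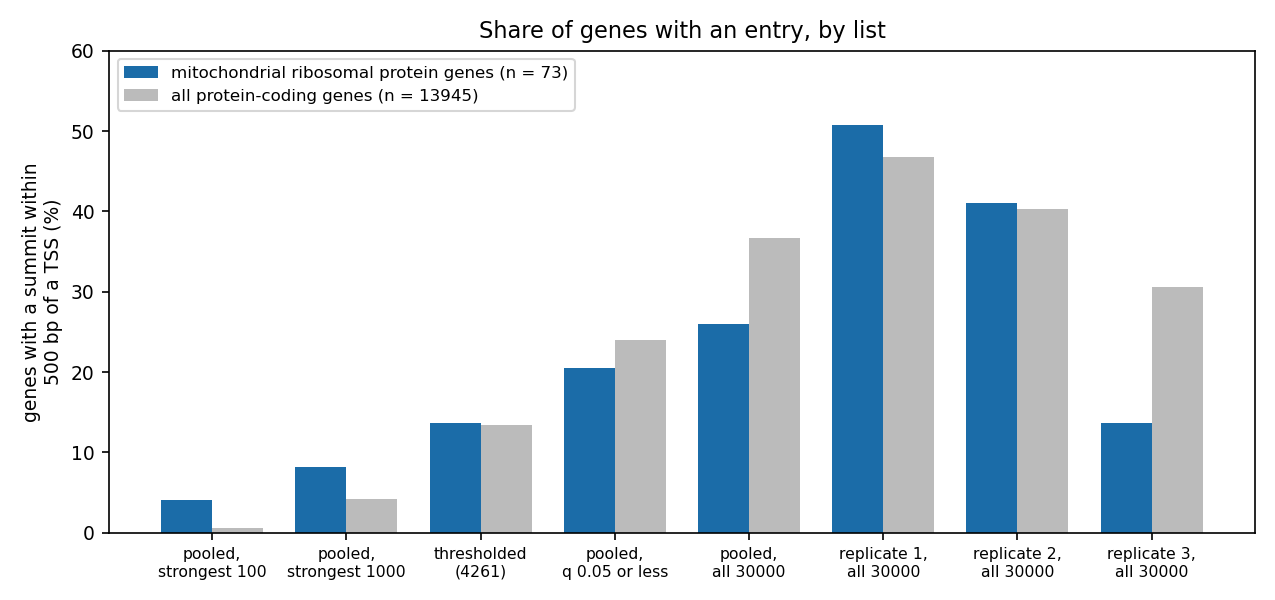
Bars give the percentage of genes with a summit within 500 bp of a TSS, for the 73 mitochondrial ribosomal protein genes (blue) and all 13945 protein-coding genes (grey), in each list or part of a list. The blue bars are the higher ones among the 100 and 1000 strongest entries, nearly equal at the threshold (13.7% and 13.4%) and lower over all pooled entries and in replicate 3.

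The motifs searched, on both strands from 250 bp before to 50 bp after each TSS, were 8 known promoter or mitochondrial gene motifs. The E-box CAGCTG, known as motif 5 of Drosophila core promoters, was present at 41 of the 73 genes (56.2%), beside 22.3% of all protein-coding genes and 30.6% of those with an opposite-strand neighbour. Within 50 bp to either side of a TSS it was present at 36 (49.3%), beside 11.9% of all genes and 18.6% of those with an opposite-strand neighbour. These 36 were 24 large and 12 small subunit genes. Matches were most frequent just around the start site.

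From 250 bp before to 50 bp after a TSS, this E-box was held by 5 of the 10 bound genes (mRpL18, mRpL23, mRpL24, mRpL41 and mRpS2) and 36 of the 63 unbound, a difference that was not tested. Over all bound protein-coding genes its share was 34.8%, beside the 22.3% of all genes. Of the 10 summit windows of 101 bp, that of mRpL18 alone held it, and 5.18% of the other peaks did. Among the 92 genes for cytoplasmic ribosomal proteins, 11 held it from 250 bp before to 50 bp after a TSS (12%). An extended form, CAGCTGTT, chosen after the sequences had been seen, was present within 50 bp of a TSS at 26 of the 73 genes (35.6%). Beside this stood 5.34% of all genes and 10.1% of those with an opposite-strand neighbour.

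The start sites of mRpS2 and mRpL24, which were bound, are set beside those of mRpL2, mRpL47, mRpS21 and mRpL17, which were not. They were chosen because they hold the E-box near the TSS, and 5 of the 10 bound genes lack it, so they show where it lies and not how common it is. Its first base was 11 bp upstream of the TSS at mRpS2 and 20 bp downstream of it at mRpL24, with the 4 unbound genes between these positions. Each sequence runs from 50 bp before the TSS to the first 30 transcribed bases, on the strand of the gene (RefSeq, dm6 coordinates), and capitals mark CAGCTG.
mRpS2, chr2L:4850390-4850469, minus strand: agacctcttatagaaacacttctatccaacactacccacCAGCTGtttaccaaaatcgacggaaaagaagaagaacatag
mRpL24, chr2L:4945332-4945411, minus strand: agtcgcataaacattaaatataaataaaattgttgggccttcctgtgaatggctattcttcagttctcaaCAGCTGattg
mRpL2, chr3L:11120797-11120876, plus strand: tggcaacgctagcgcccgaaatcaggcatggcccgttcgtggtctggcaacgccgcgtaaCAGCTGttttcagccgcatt
mRpL47, chr3R:9515879-9515958, minus strand: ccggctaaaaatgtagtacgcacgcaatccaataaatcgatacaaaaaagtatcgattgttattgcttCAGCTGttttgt
mRpS21, chr3R:13381780-13381859, minus strand: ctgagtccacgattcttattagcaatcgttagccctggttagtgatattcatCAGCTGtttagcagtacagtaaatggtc
mRpL17, chr3L:264729-264808, plus strand: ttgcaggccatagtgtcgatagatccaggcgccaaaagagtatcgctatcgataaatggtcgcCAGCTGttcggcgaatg

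**Figure D4:**
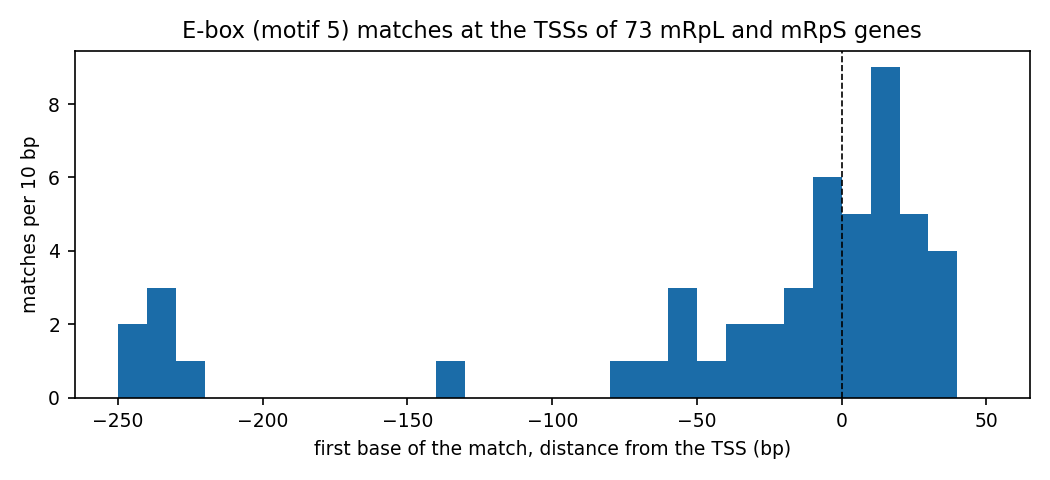
Columns count matches of CAGCTG by the position of the first base, in 10 bp steps from 250 bp before to 50 bp after the TSSs of the 73 genes; the dashed line is the TSS. Most positions lie within 50 bp of the TSS on either side, and 6 lie more than 200 bp upstream, that of mRpL23 among them.

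The DRE, TATCGATA, the site of the DREF factor that is known to act on genes of growth and DNA replication, was present at 16 of the 73 genes (21.9%), beside 10.2% of all genes and 19% of genes with an opposite-strand neighbour. Bound genes with one were mRpL20 and mRpS23, and no summit window of the 10 held it. Motif 1, GGTCACACT, the site of M1BP, was present at 8 genes (11%), beside 6.78% of all genes and 13.1% of those with such a neighbour. Motif 7, CATCNCTA, was present at 9 (12.3%), beside 7.45% of all genes and 13.7% of those with such a neighbour.

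The remaining motifs lay on both sides of the share of all genes. The ETS site CCGGAA, which in mammals is known from the promoters of genes for mitochondrial proteins, was present at 3 of the 73 (4.11%), beside 8.87% of all genes and 42.4% of cytoplasmic ribosomal protein genes. The GAGA factor site GAGAGAG was present at 1 (1.37%), beside 9.09% of all genes and 22.8% of all bound genes. The E-box CACGTG, bound by Myc, was present at 5 (6.85%), beside 5.34%, and the NRF-1 core GCGCATGC at 1 (1.37%), beside 1.46%. The forkhead-type core TAAACA was present in this window at 30 of the 73 (41.1%), beside 38.3% of all genes and 44.4% of genes with an opposite-strand neighbour.

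**Figure D5:**
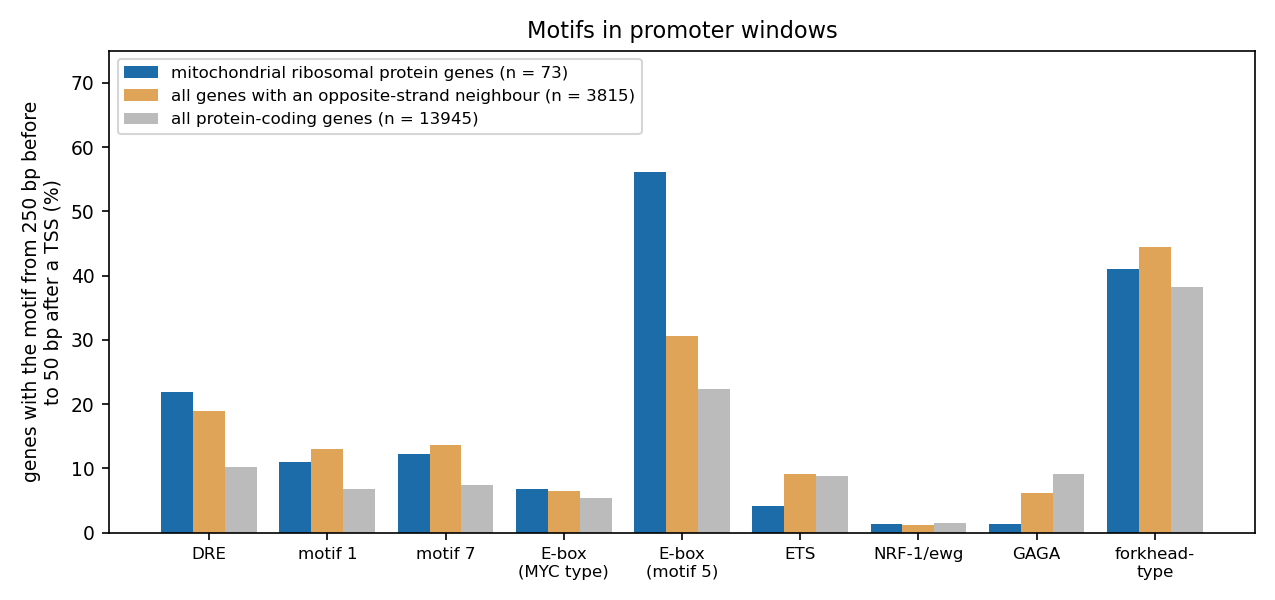
Bars give the percentage of genes with each motif from 250 bp before to 50 bp after a TSS, for the 73 mitochondrial ribosomal protein genes (blue), the 3815 genes with an opposite-strand neighbour (orange) and all 13945 protein-coding genes (grey). The motif 5 E-box (CAGCTG) is at 56.2%, 30.6% and 22.3%, and the DRE at 21.9%, 19% and 10.2%.

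Genes for the proteins of the cytoplasmic ribosome, whose promoters were the nearest counterpart in function, differed in count. Of these 92 genes, 64 were bound (69.6%), and 63 (68.5%) when peaks were assigned to their closest start site alone. An opposite-strand neighbour within 500 bp was present for 36 (39.1%). The difference between these groups was not tested. Of 44 other genes, listed mainly for mitochondrial translation, transcription and DNA maintenance, 2 were bound (4.55%), beside the 13.4% of all genes. PNPase, which encodes the polynucleotide phosphorylase of mitochondria, had the peak at rank 6 (chr3R:31404496-31404822), 85 bp upstream of its TSS, with ranks 8, 9 and 7 in replicates 1, 2 and 3 (mean 8.0 ± 1.0, SD, n = 3). mtSSB, which encodes the single-stranded DNA binding protein of mitochondria, had rank 1368, with 1044, 1395 and 4853 (mean 2431 ± 2105, SD, n = 3). Both summits were closest to the gene itself. The mitochondrial ribosomal protein genes tko and bonsai, which the symbol rule left out, were among the 42 not bound.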

How the data were processed

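CG12071-GFP was measured by ChIP-seq in 3 embryo replicates of 1 group, numbered as in the labels. Per the labels' protocols, chromatin was sonicated to 200 to 800 bp. The signal value and the −log10 q-value of each entry are the authors' deposited values, given per replicate and for the pooled replicates on dm6, per the labels, which name 1 control experiment. The aligner, the caller and the scale of the signal are not given in the sources used here. Signal was used only to rank entries within a list, and most pooled entries had a fixed width of 370 bp. The thresholded list held 4261 peaks and every full list ended at 30000 entries, and read depth was unknown, so list lengths carry no information on binding.

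The annotation was that of Ensembl release 115 for BDGP6.54, with 19607 TSSs of 13945 protein-coding genes, and sequence from RefSeq. Summits, TSSs and motifs were matched with Python 3.11.15, NumPy 2.4.6 and pandas 2.3.3 and figures drawn with matplotlib 3.10.9; the matching was tested on simulated peaks. No test was run: counts stand beside those of all protein-coding genes, and genes are not replicates. The SD over replicates measures their spread, which may be partly technical.

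The genes and lists were chosen with earlier results of these data known. Of 59 symbols listed for other mitochondrial genes, the annotation held 44, and Hen1 among them acts on small RNAs outside mitochondria. Genes named are all bound members, those with an entry among the strongest 4261 of a replicate, up to 10 others by pooled rank, neighbours of bound members, and bound genes of the mitochondrial list. Genes named outside this rule were chosen after their values were seen, as were TAAACA and CAGCTGTT. Alternatives were TSS windows of 250 and 1000 bp, 1 TSS per gene, other thresholds and support distances, nearest TSS only, and leaving out each replicate. Sequences were not printed where more than 30 bases were annotated UTR.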

Additional observations from a re-analysis of the deposited data

How the results depend on the processing

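Of 20 alternatives, 13 left the counts within 1.5 times, or the mean share within the SD between replicates. The count of 10 bound genes was 8 with a TSS window of 250 bp (11%), beside 10.5% of all genes. It was 11 with one of 1000 bp (15.1%), which added mRpL2, beside 16.6%. With 1 TSS per gene it stayed at 10 (13.7%), beside 11.2% of all genes. For pooled entries with a q-value of 0.05 or less it was 15 (20.5%), beside 24%. It fell to 6 in the 2130 strongest thresholded peaks and to 6 for peaks supported in all 3 replicates, in each case mRpS23, mRpS10, mRpL41, mRpL23, mRpS2 and mRpL24. It was 2 when peaks were assigned to their closest start site alone. Leaving out a replicate, so that a peak needed support from both of the others, gave 6 to 7: 6 without replicate 1 and without replicate 2, and 7 without replicate 3. The peaks were still those of the thresholded list, made from all 3 replicates, so these counts could not rise. All genes fell too, to 7.35%, 7.0% and 9.59%. In single replicates the mean share of 11.9% became 6.85% ± 1.37 (SD, n = 3) with the 1000 strongest entries (4.2% over all genes). For entries with a q-value of 0.05 or less it was 26.0% ± 15.3 (SD, n = 3), beside 24.6% over all genes. Replicates 1, 2 and 3 had 39.7%, 28.8% and 9.59% at that level. Both shifts of the mean are built in by taking fewer or more entries.

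The 8 summits closer to a neighbour, the 6 genes supported in all replicates and the 16 genes with a DRE kept their counts under these alternatives. Outside the alternatives counted, within 50 bp to either side of a TSS, 15 genes held a DRE (20.5%). Beside this stood 6.07% of all genes and 11.8% of genes with an opposite-strand neighbour. No paired analysis was possible because the replicates form 1 group, with no other group of samples to pair them with. Depth was unknown, so genes with no entry cannot be called unbound below the level at which the lists end.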
